A study of Mus musculus with 12 samples.

Results

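Mouse kidneys of 3 groups were compared, labelled wildtype, Myc overexpression, and Grhl2 knockout with Myc overexpression. The genes described here are 39 markers of fibroblasts, extracellular matrix, smooth muscle and pericytes, out of 46403 genes counted. They were taken by symbol from a list of names, 25 for fibroblasts and matrix and 14 for smooth muscle and pericytes. All 39 were present in the count table, and all 39 were among the 23742 genes with enough counts to be tested.

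Fibroblasts of the kidney interstitium secrete fibrillar collagens, fibronectin and microfibril proteins, and transforming growth factor beta is the signal best known to raise their output when a kidney scars. Smooth muscle cells of the renal arteries and of the wall of the pelvis contract through a specialised actin and myosin machinery, and pericytes share part of that programme around capillaries. A rise of collagens together with smooth muscle actin is the usual transcript sign of fibrosis, including fibrosis around cysts.

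The Grhl2KO_Myc group (n = 4) carries both the Grhl2 knockout and the MYC transgene, from a cross in which HoxB7-Cre; Grhl2flox/+ mice were mated to R26StopFLMYC; Grhl2flox/flox mice. The Myc group (n = 3) is labelled with overexpression alone. Its library identifiers carry the letters HET, and the labels name neither its cross nor its Grhl2 alleles. The wildtype group (n = 5) holds kidneys of R26StopFLMYC; Grhl2 flox/flox mice, in which the floxed alleles are intact and the transgene is behind its stop cassette. Grhl2 is a transcription factor of epithelial cells, and R26StopFLMYC expresses MYC from the Rosa26 locus once Cre has removed the stop. HoxB7-Cre recombines in epithelium of the ureteric bud lineage, which becomes the collecting duct, while the 39 genes are mainly expressed by stromal, vascular and muscle cells. Each library is polyadenylated RNA of a whole right kidney, so the proportion of stromal cells and the RNA per cell cannot be told apart. The labels state no age. Nothing in them shows that each library is from its own mouse, so a p-value here measures the spread between samples, which may be technical.

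Total counts per library were 75187006 to 108164810 in Grhl2KO_Myc, 70608817 to 101043826 in Myc and 52973520 to 98713157 in wildtype. Levels are CPM, counts scaled to the library total with TMM factors. Differences are log2 fold changes with a standard error (SE), and a gene was called at an edgeR quasi-likelihood adjusted p under 0.05. All 20 proximal tubule, 10 collecting duct and 10 podocyte markers were measured. Grhl2 itself was at 18.5, 19.0, 24.3 and 22.3 CPM in Grhl2KO_Myc 1 to 4, 28.5, 33.0 and 28.2 CPM in Myc 1 to 3, and 29.3, 24.9, 25.6, 23.9 and 25.2 CPM in wildtype 1 to 5, so Grhl2KO_Myc 3 alone overlaps wildtype. There were 3 libraries that stood apart in proximal tubule markers. The summed level of the 20 proximal tubule markers was 1894 CPM in Grhl2KO_Myc 3, 2008 CPM in Grhl2KO_Myc 4 and 1698 CPM in wildtype 4, against 3806 to 6808 CPM in the other 9. Grhl2KO_Myc 2 stood apart in the sum of 10 adrenal markers, with 26.4 CPM against 6.40 to 11.3 CPM in all other libraries. Most of that sum was Dbh (13.6 CPM, at most 0.514 CPM elsewhere) and Th (4.92 CPM, at most 0.361 CPM elsewhere). Mc2r was also highest there (2.39 CPM, at most 2.14 CPM elsewhere). Cyp11b1, Cyp11b2, Cyp11a1, Cyp21a1, Star, Hsd3b1 and Nr5a1 lay within the range of the other libraries. The part of adrenal or other tissue in the values of Grhl2KO_Myc 2 was not tested. The Y-linked gene Ddx3y reached 62.8 to 81.2 CPM in Grhl2KO_Myc 1, Grhl2KO_Myc 4, Myc 3 and wildtype 5 and no more than 1.33 CPM elsewhere. Of the libraries low in Ddx3y, Grhl2KO_Myc 3 was also low in Xist, at 0.213 CPM, and the others had 871 to 1006 CPM of Xist. A term for Ddx3y therefore groups Grhl2KO_Myc 3 with libraries that it does not resemble in Xist.

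Matrix transcripts included some of the most abundant of the 39. Among the 25 matrix genes the highest library exceeded the lowest by between 1.18-fold for Sparc and 3.14-fold for Lum. Per kilobase of exon, the mean level over 12 libraries was highest for Sparc (193 CPM per kb), which encodes a collagen-binding protein of the matrix. Next came Col3a1 (166 CPM per kb), the smooth muscle actin Acta2 (152 CPM per kb), Col1a1 (145 CPM per kb) and Col1a2 (101 CPM per kb). The lowest levels among the 39 were those of the smooth muscle regulator Myocd (0.268 CPM per kb) and of Pln, which encodes an inhibitor of the sarcoplasmic calcium pump (0.112 CPM per kb).

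Between Grhl2KO_Myc and wildtype kidneys, no matrix or fibroblast gene passed the threshold. In edgeR 0 of 25 were called, where 6.67% of all tested genes were. At an unadjusted p under 0.05, 6 of the 25 had negative values and 0 positive ones, against 22.0% of all genes on either side. DESeq2 called 1 of the 25, Pdgfra, where it called 11.3% of all genes. The log2 fold changes of the 25 ran from -0.31 for Col6a3 to 0.23 for Timp1. Of them, 19 were below 0, against 51.5% of all genes. Their median was -0.09, and that of all genes was -0.01. For 21 of the 25 genes the 95% interval of the fold change lay within 1.5-fold in either direction. Without wildtype 4, edgeR called 4 of 25, all lower, namely Col6a3, Col14a1, Fbn1 and Mmp2, where it then called 15.9% of all genes, 6.97% lower. Without the 3 libraries low in proximal tubule markers it called 2, Col6a3 and Pdgfrb, also lower, where it called 9.48% of all genes, 4.61% lower.

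**Figure D1:**
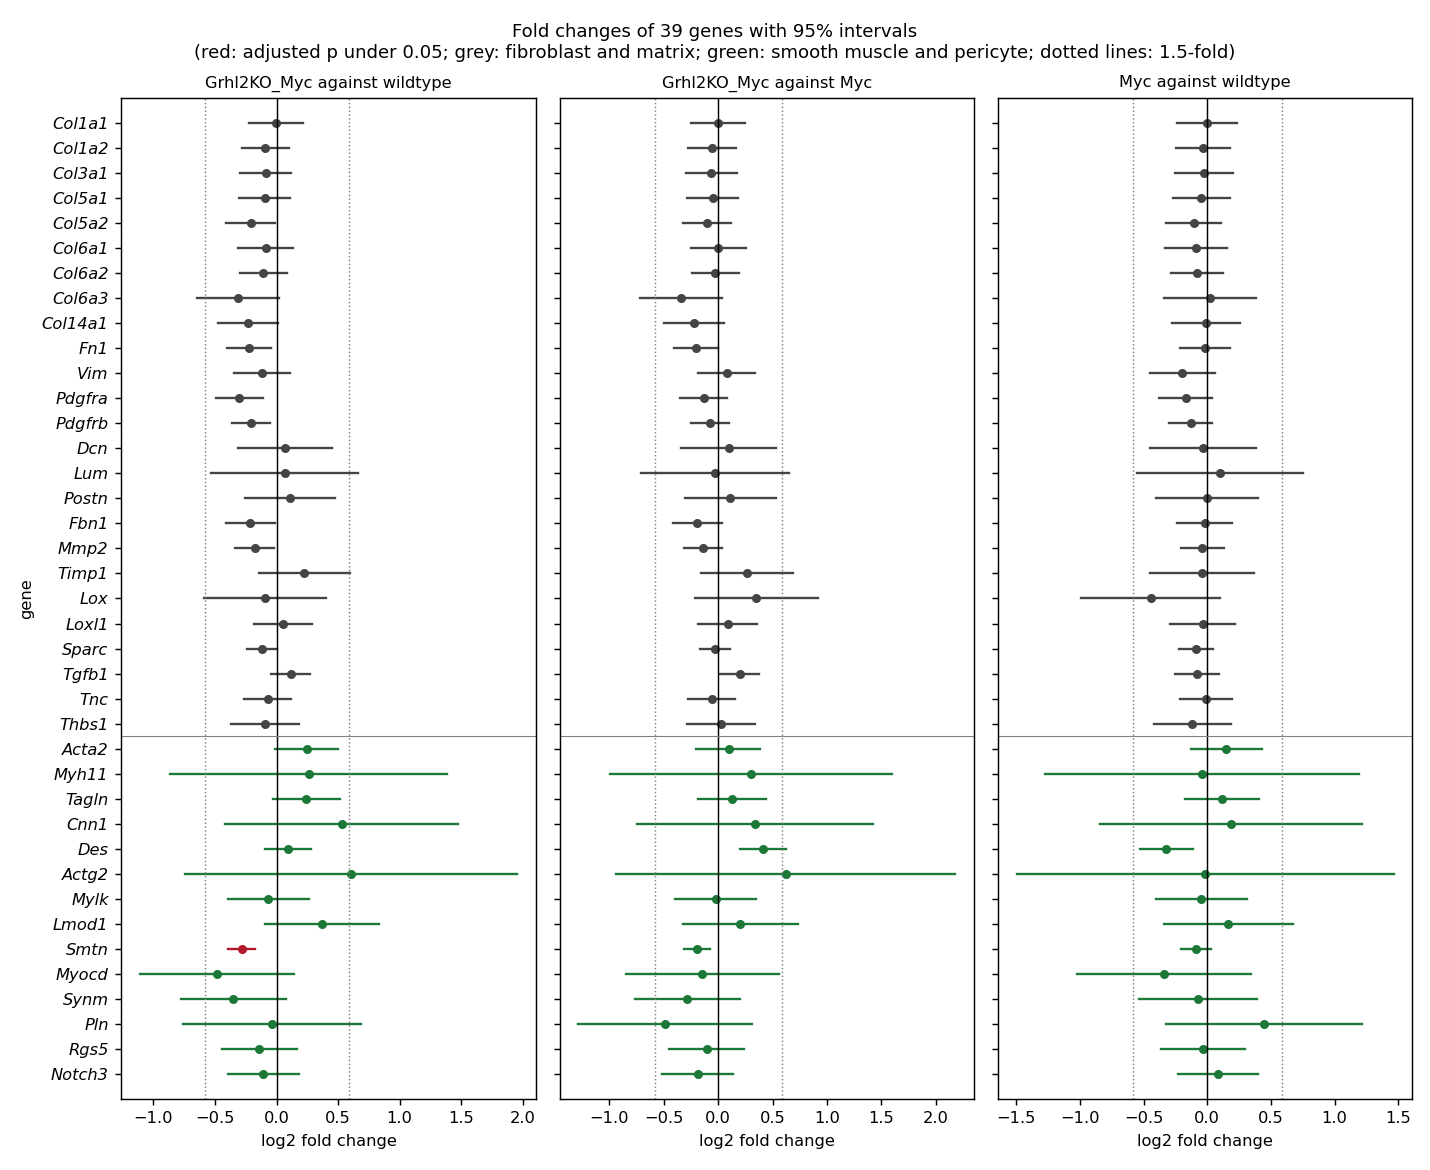
Log2 fold change (x axis) and its 95% interval for each of the 39 genes (y axis) in 3 comparisons, from edgeR on 4 Grhl2KO_Myc, 3 Myc and 5 wildtype libraries; dotted lines mark 1.5-fold. Smtn in the left panel is the single gene drawn in red (adjusted p = 0.00685), and the intervals of Myh11, Cnn1 and Actg2 are the widest of the left panel.

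The fibrillar collagens, which form the fibres of the interstitium, were not called in any comparison. Col1a1, the main chain of type I collagen, was at 853, 1057, 1006 and 886 CPM in Grhl2KO_Myc 1 to 4, 930, 1016 and 905 CPM in Myc 1 to 3, and 1083, 978, 876, 779 and 1042 CPM in wildtype 1 to 5. The 3 ranges overlap, and the lowest library of all is wildtype 4. On the log2 scale its fold change was 0.00 over wildtype (SE 0.10, edgeR adjusted p = 0.995) and 0.00 over Myc (SE 0.12, adjusted p = 0.999), and that of Myc over wildtype was 0.00 (SE 0.11, adjusted p = 0.999). Col3a1, the chain of type III collagen found beside it, had 1435, 1810.1, 1635 and 1394 CPM in Grhl2KO_Myc, 1680, 1760 and 1472 CPM in Myc, and 1882, 1702, 1671, 1481 and 1603 CPM in wildtype. Grhl2KO_Myc 2 lies near the top of the wildtype range and Grhl2KO_Myc 1 and 4 lie below it. Its log2 fold change was -0.09 over wildtype (SE 0.10, edgeR adjusted p = 0.637) and -0.06 over Myc (SE 0.11, adjusted p = 0.839), and -0.03 for Myc over wildtype (SE 0.10, adjusted p = 0.999).

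The collagens as a set varied between libraries of each group. Col1a2, Col5a1 and Col5a2, which join the same fibres, had log2 fold changes over wildtype of -0.09, -0.10 and -0.21, and Col14a1, a collagen on the fibre surface, -0.23 (edgeR adjusted p = 0.603, 0.605, 0.195 and 0.256). Col14a1 passed without Grhl2KO_Myc 2 (-0.36, adjusted p = 0.0485) or wildtype 4 (adjusted p = 0.046). With each library left out in turn, its edgeR adjusted p ran from 0.046 to 0.467. Over the 9 collagen genes, the median log2 level relative to the wildtype mean was -0.22, 0.12, -0.09 and -0.32 in Grhl2KO_Myc 1 to 4, -0.02, 0.06 and -0.15 in Myc 1 to 3, and 0.17, 0.04, 0.00, -0.19 and 0.00 in wildtype 1 to 5. Wildtype 1 held the highest value of 7 of the 9 genes and Grhl2KO_Myc 4 the lowest value of 6. Among all 25 matrix genes, wildtype 1 was highest for 13 and Grhl2KO_Myc 2 for 7, and Grhl2KO_Myc 4 was lowest for 12.

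**Figure D2:**
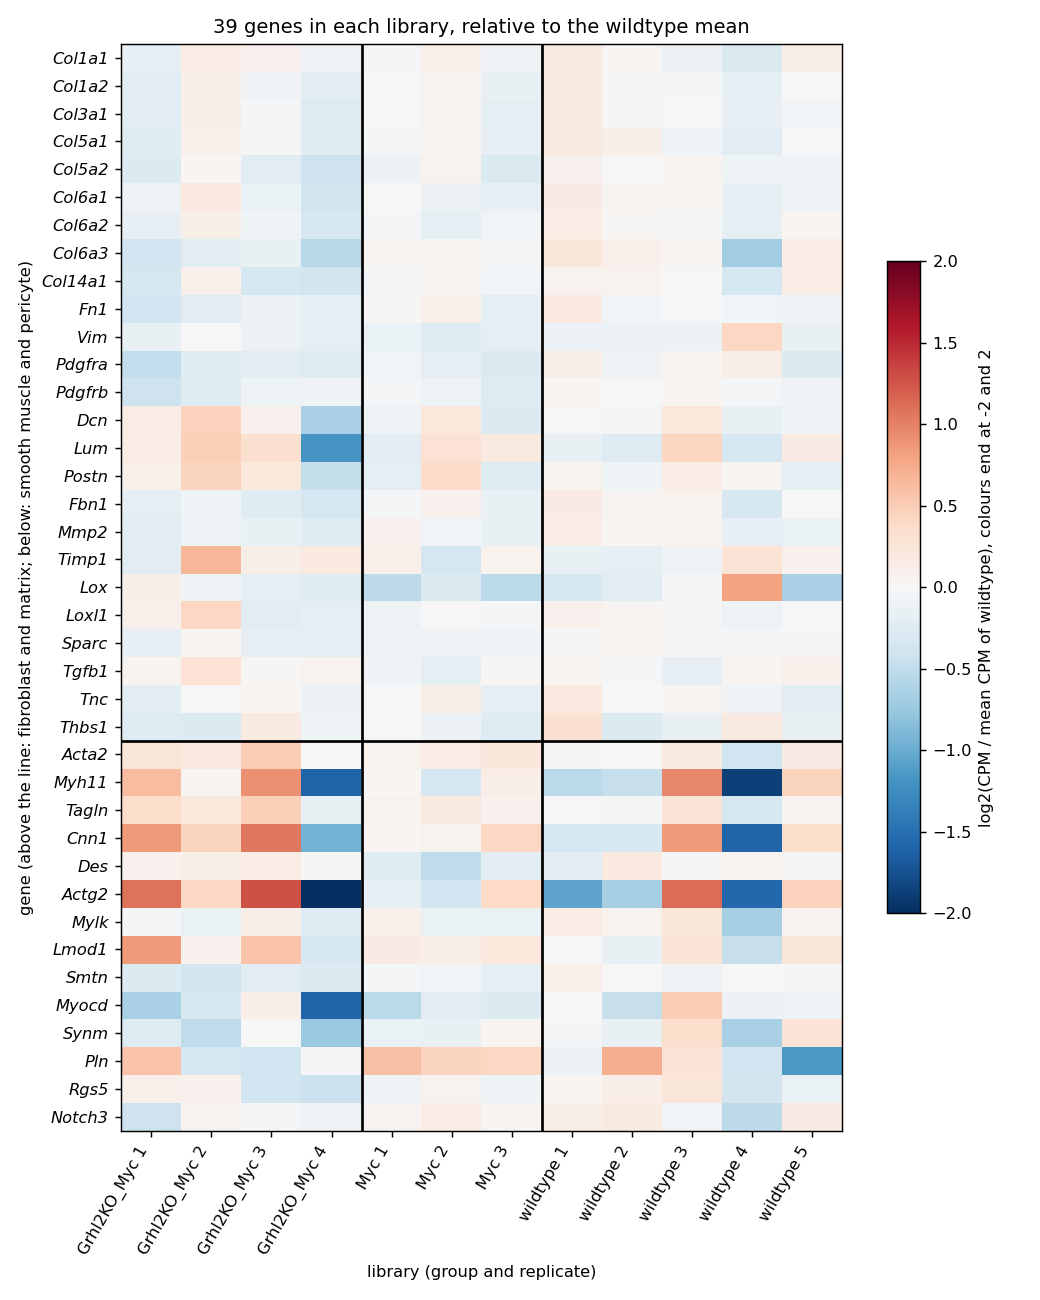
Level of each of the 39 genes (y axis) in each of 12 libraries (x axis), as log2 of CPM over the mean CPM of wildtype; matrix genes are above the horizontal line and smooth muscle genes below it. Grhl2KO_Myc 4 and wildtype 4 have the lowest Myh11, Cnn1 and Actg2, and wildtype 4 has the highest Lox and Vim.

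Type VI collagen, a beaded network around cells, combines several chains, of which Col6a3 had the most negative value among the matrix genes. Col6a3 was at 119, 135, 140.1 and 106 CPM in Grhl2KO_Myc, at 161, 162 and 151 CPM in Myc, and at 182, 167, 161, 95.7 and 172 CPM in wildtype. Every Grhl2KO_Myc library is below every Myc library and below wildtype 1, 2, 3 and 5, while wildtype 4 is the lowest of all 12. Over wildtype its log2 fold change was -0.31 (SE 0.15, edgeR adjusted p = 0.256) and became -0.45 (adjusted p = 0.0033) without wildtype 4. Leaving out each library in turn gave -0.45 to -0.24 (without Grhl2KO_Myc 4), with edgeR adjusted p from 0.0033 to 0.482. Over Myc it was -0.34 (SE 0.17, adjusted p = 0.433). Col6a1 and Col6a2, the partner chains, had log2 fold changes of -0.09 and -0.11 over wildtype and 0.00 and -0.03 over Myc. The per-length ratio of Col6a3 to Col6a1 was 0.143 to 0.188 in Grhl2KO_Myc, 0.195 to 0.215 in Myc and 0.131 to 0.226 in wildtype. The exact permutation p of this ratio, two-sided, was 0.286 for Grhl2KO_Myc against wildtype and 0.0571 for Grhl2KO_Myc against Myc (both among 15 tests on 5 ratios, adjusted p = 0.715 and 0.536). The smallest p these group sizes allow is 0.00794 against wildtype and 0.0286 against Myc, so a single ratio could not pass adjustment over the 15 tests however far apart its groups were. Col6a3 is given in full here because of its values, which were seen before it was chosen.

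Fibronectin, which links cells to collagen, was the matrix gene whose Grhl2KO_Myc and wildtype libraries did not overlap. Fn1 stood at 482, 535, 579 and 556 CPM in Grhl2KO_Myc, at 638, 675 and 550.2 CPM in Myc, and at 719, 608, 625, 602 and 588 CPM in wildtype. All Grhl2KO_Myc values lie below all wildtype values, but Myc 3 falls among the Grhl2KO_Myc values. No overlap in either direction was seen for 1 of 25 matrix genes, against 9.47% of all genes tested. For Fn1 the log2 fold change was -0.22 over wildtype (SE 0.08, edgeR adjusted p = 0.13) and -0.21 over Myc (SE 0.09, adjusted p = 0.361), and that of Myc over wildtype was -0.02 (SE 0.09, adjusted p = 0.999). The antisense model Apol7d overlaps an exon of Fn1.

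Receptors for platelet-derived growth factor, which mark fibroblasts and pericytes, had negative values in Grhl2KO_Myc against wildtype without a call. Pdgfrb was at 139, 154, 172 and 176 CPM in Grhl2KO_Myc, at 179.7, 173 and 155 CPM in Myc, and at 189, 186, 191, 183 and 176 CPM in wildtype. Only Grhl2KO_Myc 4 reaches the lowest wildtype library, wildtype 5. Its log2 fold change was -0.21 over wildtype (SE 0.07, edgeR adjusted p = 0.107), -0.08 over Myc (SE 0.08, adjusted p = 0.716) and -0.13 for Myc over wildtype (SE 0.08, adjusted p = 0.999). Without the 3 libraries low in proximal tubule markers, Pdgfrb passed against wildtype (log2 fold change -0.35, adjusted p = 0.0181). Pdgfra, the receptor of interstitial fibroblasts, came nearest to a call among the matrix genes. It was at 107, 128, 129 and 126 CPM in Grhl2KO_Myc, at 146, 134 and 123 CPM in Myc, and at 165, 144, 155, 164 and 125 CPM in wildtype. Wildtype 5 is the library that overlaps the Grhl2KO_Myc range. Pdgfra over wildtype gave -0.30 on the log2 scale (SE 0.09, edgeR adjusted p = 0.0621, DESeq2 adjusted p = 0.0198), and without wildtype 5 edgeR gave -0.37 (adjusted p = 0.0223). Leaving out each library in turn gave -0.37 to -0.25, with edgeR adjusted p from 0.0223 to 0.147. Pdgfra too was singled out after its values were seen, and the antisense models Gm42802 and Gm42803 overlap it.

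Vimentin, the intermediate filament of mesenchymal cells, and lysyl oxidase, which crosslinks collagen, were both set apart by 1 wildtype library. Vim was at 368, 402, 374 and 354 CPM in Grhl2KO_Myc, at 370.1, 340.2 and 355 CPM in Myc, and at 376, 375, 375, 539 and 368 CPM in wildtype. Wildtype 4 lies far above the other 11 libraries, which span 340.2 to 402 CPM. For Vim over wildtype the value was -0.12 (SE 0.11, edgeR adjusted p = 0.56) and 0.01 without wildtype 4 (adjusted p = 0.963). It was 0.08 over Myc (SE 0.12, adjusted p = 0.819), and -0.20 for Myc over wildtype (SE 0.12, adjusted p = 0.999). Lox, chosen for its values, was at 135, 118, 109.6 and 105 CPM in Grhl2KO_Myc, 87.0, 102 and 86.0 CPM in Myc, and 99.4, 106, 121, 217 and 79.8 CPM in wildtype. Grhl2KO_Myc libraries are all above the Myc libraries, and wildtype 4 is again the highest of 12. Its log2 fold change over wildtype was -0.09 (edgeR adjusted p = 0.852) with wildtype 4 and 0.20 (adjusted p = 0.268) without it. The part of the low proximal tubule content of wildtype 4 in these values was not tested.

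Timp1 and Tgfb1, regulators of matrix, were not called in any comparison. Timp1, an inhibitor of matrix metalloproteinases that is induced in injured kidneys, was at 3.14, 5.80, 3.97 and 4.21 CPM in Grhl2KO_Myc, at 3.92, 2.88 and 3.84 CPM in Myc, and at 3.31, 3.18, 3.49, 4.41 and 3.90 CPM in wildtype. Grhl2KO_Myc 2 is the highest library and the ranges overlap. Its log2 fold change was 0.23 over wildtype (SE 0.17, edgeR adjusted p = 0.476), 0.27 over Myc (SE 0.20, adjusted p = 0.59) and -0.04 for Myc over wildtype (SE 0.19, adjusted p = 0.999). Without Grhl2KO_Myc 2 the value over wildtype was 0.05. Tgfb1, the growth factor that drives matrix synthesis, was at 31.8, 37.4, 31.2 and 32.2 CPM in Grhl2KO_Myc, at 29.1, 26.6 and 31.0 CPM in Myc, and at 31.3, 29.7, 27.3, 31.8 and 32.8 CPM in wildtype. All Grhl2KO_Myc libraries are above the Myc libraries, by a narrow margin for Myc 3, and they overlap wildtype. For Tgfb1 the log2 fold change was 0.12 over wildtype (SE 0.07, edgeR adjusted p = 0.388), 0.20 over Myc (SE 0.08, adjusted p = 0.333) and -0.08 for Myc over wildtype (SE 0.08, adjusted p = 0.999).

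The remaining matrix genes were not called either. The small proteoglycans Dcn and Lum and the matricellular protein Postn, all products of fibroblasts, had log2 fold changes over wildtype of 0.07, 0.07 and 0.11. Grhl2KO_Myc 4 was the lowest of 12 libraries for all 3, with 62.3 CPM of Dcn, 5.98 CPM of Lum and 88.6 CPM of Postn, and without it their values became 0.25, 0.32 and 0.26. Grhl2KO_Myc 2 was the highest of 12 for all 3, with 135 CPM of Dcn, 18.8 CPM of Lum and 168 CPM of Postn. Without Grhl2KO_Myc 2 the values became -0.095, -0.099 and -0.023. Fbn1, the core of microfibrils, and Mmp2, a gelatinase, were at -0.21 and -0.18 over wildtype (edgeR adjusted p = 0.193 and 0.174). Sparc, Tnc, Thbs1 and Loxl1 were at -0.12, -0.07, -0.09 and 0.05.

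**Figure D3:**
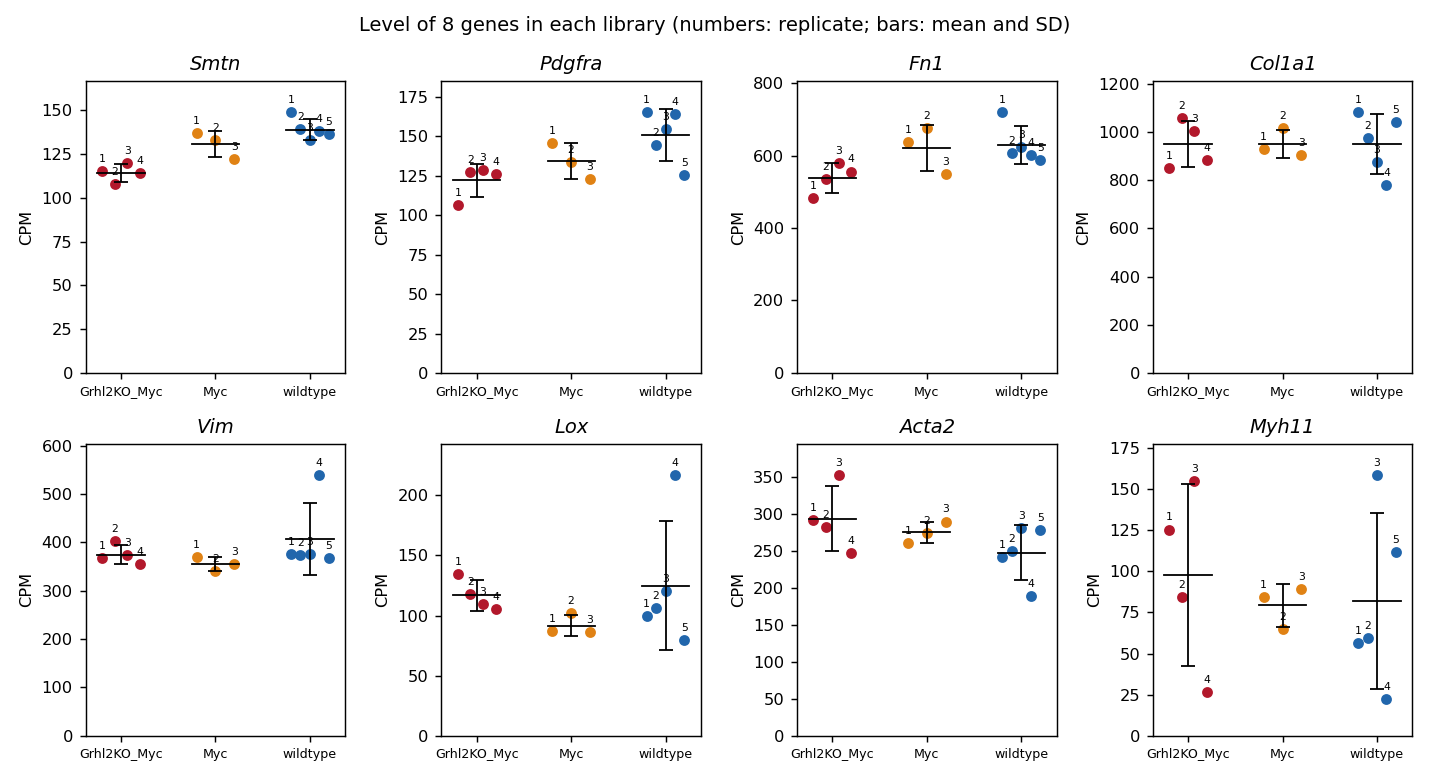
CPM (y axis, from 0) of 8 genes in each library, with replicate numbers beside the points and the mean and SD of each group (Grhl2KO_Myc n = 4, Myc n = 3, wildtype n = 5). Smtn is at 108 to 120.1 CPM in Grhl2KO_Myc and 133 to 149 CPM in wildtype without overlap, and Vim and Lox have 1 high wildtype library, wildtype 4.

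Among the smooth muscle and pericyte genes, 1 of 14 was called between Grhl2KO_Myc and wildtype, where 6.67% of all genes were called in either direction. It was lower, and 2.61% of all genes were called lower. Log2 fold changes spread more widely than those of the matrix genes, from -0.48 for Myocd to 0.60 for Actg2, with 7 above 0 and 7 below and a median of 0.03. The 95% interval lay within 1.5-fold for 7 of the 14.

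The called gene was Smtn (ENSMUSG00000020439.17, chr11:3517523-3540612, minus strand, mm10), which encodes smoothelin, a cytoskeletal protein of contractile smooth muscle. Smtn was at 115, 108, 120.1 and 114 CPM in Grhl2KO_Myc 1 to 4, 137, 133 and 122 CPM in Myc 1 to 3, and 149, 139, 133, 138 and 136 CPM in wildtype 1 to 5. All Grhl2KO_Myc libraries lie below all Myc and all wildtype libraries. On the log2 scale Smtn changed by -0.28 over wildtype (SE 0.05, edgeR adjusted p = 0.00685, DESeq2 adjusted p = 2.52e-05), a level 1.22-fold lower. With a term for Ddx3y the adjusted p was 0.0172. Leaving out each library in turn gave -0.31 to -0.26 with adjusted p from 0.00377 to 0.0253. Over Myc it was -0.19 (SE 0.06, edgeR adjusted p = 0.155), and for Myc over wildtype -0.09 (SE 0.05, adjusted p = 0.999). Exons of the antisense models Gm11946 and Gm11947 overlap Smtn and the kit does not mark strand, so reads of the pair cannot be told apart. Gm11946 was counted at 19.8 to 21.2 CPM in Grhl2KO_Myc, 22.7 to 23.6 CPM in Myc and 20.96 to 26.6 CPM in wildtype, and Gm11947 stayed at or below 0.129 CPM. All 12 endothelial and all 10 podocyte markers also had values below 0 against wildtype, where 51.5% of all genes did. Of each list 3 were called lower, where 2.61% of all genes were. The part of these cell types in the value of Smtn was not tested. The 12 endothelial markers summed to 962 to 1022 CPM in Grhl2KO_Myc, 969 to 1039 CPM in Myc and 1057 to 1177 CPM in wildtype, and the 10 podocyte markers to 886 to 988 CPM in Grhl2KO_Myc, 937 to 1145 CPM in Myc and 1154 to 1236 CPM in wildtype.

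The promoters of smooth muscle genes are known for CArG boxes, sites of serum response factor, and Grhl factors are known to bind AACCGGTT. The 250 bases upstream of the RefSeq gene start (GRCm38.p6) were searched on both strands for 24 of the 39 genes, those with an entry in the table used. Shown are the called gene Smtn (chr11:3539293-3539542, minus strand), the actin gene Acta2 (chr19:34255374-34255623, minus strand) and Cnn1 (chr9:22099003-22099252, plus strand), which follows Myh11 most closely. Capitals mark CArG boxes with 1 C or G in the core.
Smtn: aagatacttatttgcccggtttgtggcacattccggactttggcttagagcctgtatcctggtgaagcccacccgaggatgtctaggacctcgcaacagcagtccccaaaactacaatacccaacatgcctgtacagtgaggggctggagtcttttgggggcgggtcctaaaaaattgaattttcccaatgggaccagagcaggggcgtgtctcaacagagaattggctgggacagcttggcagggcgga
Acta2: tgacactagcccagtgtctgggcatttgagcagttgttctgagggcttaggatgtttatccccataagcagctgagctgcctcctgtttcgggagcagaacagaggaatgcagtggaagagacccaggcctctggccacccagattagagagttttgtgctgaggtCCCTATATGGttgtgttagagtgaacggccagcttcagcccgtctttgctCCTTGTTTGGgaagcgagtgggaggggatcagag
Cnn1: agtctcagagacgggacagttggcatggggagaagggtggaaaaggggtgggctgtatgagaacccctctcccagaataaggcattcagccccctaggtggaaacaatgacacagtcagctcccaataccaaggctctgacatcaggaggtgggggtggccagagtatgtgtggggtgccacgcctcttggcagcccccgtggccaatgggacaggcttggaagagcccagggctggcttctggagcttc
Acta2 holds a pair of these sites, from -84 to -75 and from -34 to -25 relative to the start, and Smtn and Cnn1 hold none in this window. The 2 annotations differ in the gene starts. The Smtn window lies inside the GENCODE M21 gene, which starts at 3540612, and bases upstream of that start were not searched. The Acta2 and Cnn1 windows also overlap their GENCODE M21 genes. Of 27 windows of the 24 genes, 4 had such a match, in Acta2, Col6a3, Col1a2 and Synm, against 8.59% of all 32851 windows. The exact CArG box was in 0 of the 27 windows and in 1.47% of all, and AACCGGTT was in 0 and in 0.116%. The looser AACNNGTT, which includes every AACCGGTT, was in 0 of the 27 and in 3.64% of all. A match describes these letters and no binding was measured. Actg2, Col14a1, Col1a1, Col5a2, Dcn, Fn1, Lox, Loxl1, Lum, Mmp2, Myh11, Myocd, Pdgfrb, Tagln and Thbs1 had no entry in the table used.

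Smooth muscle actin and transgelin, an actin-binding protein of the same cells, had positive values over wildtype and were not called. Acta2 was at 292, 283, 353 and 248 CPM in Grhl2KO_Myc, at 261, 275 and 289.7 CPM in Myc, and at 242, 249.8, 281, 189 and 278 CPM in wildtype. Grhl2KO_Myc 1 to 3 are above every wildtype library, and Grhl2KO_Myc 4 is inside the wildtype range. For Acta2 the log2 fold change was 0.25 over wildtype (SE 0.12, edgeR adjusted p = 0.251), 0.09 over Myc (SE 0.14, adjusted p = 0.799) and 0.15 for Myc over wildtype (SE 0.13, adjusted p = 0.999). Tagln was at 111, 100.5, 120.3 and 77.7 CPM in Grhl2KO_Myc, at 90.7, 98.4 and 92.0 CPM in Myc, and at 85.6, 85.4, 103, 68.6 and 89.6 CPM in wildtype. As for Acta2, Grhl2KO_Myc 3 is the highest library and wildtype 4 the lowest. Its log2 fold change was 0.24 over wildtype (SE 0.12, edgeR adjusted p = 0.277), 0.13 over Myc (SE 0.14, adjusted p = 0.735) and 0.12 for Myc over wildtype (SE 0.14, adjusted p = 0.999). Tagln exons overlap the coding gene Pcsk7, whose reads may be counted with it.

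The heavy chain of smooth muscle myosin varied several-fold among the Grhl2KO_Myc and among the wildtype libraries, and less among the 3 Myc libraries. Myh11 was at 126, 84.7, 155 and 26.8 CPM in Grhl2KO_Myc, at 84.2, 64.6 and 89.3 CPM in Myc, and at 56.2, 59.6, 159, 22.4 and 112 CPM in wildtype. Grhl2KO_Myc 4 and wildtype 4 are lowest, Grhl2KO_Myc 3 and wildtype 3 are highest, and the ranges overlap throughout. The highest library exceeded the lowest by 7.10-fold, against 1.35-fold for Col3a1. For Myh11 the log2 fold change was 0.26 over wildtype (SE 0.52, edgeR adjusted p = 0.812), 0.30 over Myc (SE 0.60, adjusted p = 0.86) and -0.04 for Myc over wildtype (SE 0.57, adjusted p = 0.999). These intervals are wide, and without wildtype 3 the value over wildtype was 0.64 and without Grhl2KO_Myc 3 it was -0.05. Cnn1, which encodes calponin, and Actg2, the actin of visceral smooth muscle, varied in the same way. Their highest libraries exceeded the lowest by 6.32-fold and 11.3-fold.

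Over the 12 libraries Myh11 moved closely with a subset of the contractile genes. On log2 CPM, Pearson's r with Myh11 was 0.974 for Cnn1 and 0.960 for Actg2 (permutation p = 1e-05 each, the smallest that 100000 permutations can give, and 7e-05 adjusted over 14 relations). Spearman's rho was 0.958 for Cnn1 (permutation p = 3e-05) and 0.979 for Actg2 (permutation p = 1e-05). Without the 2 libraries farthest from the median of Myh11, Grhl2KO_Myc 4 and wildtype 4, r was 0.941 for Cnn1 and 0.962 for Actg2. Tagln, Lmod1 and Acta2 followed with r of 0.889, 0.867 and 0.846. Synm and Mylk had r of 0.765 and 0.762 (permutation p = 0.004 and 0.0031, 0.0071 and 0.0063 adjusted), which fell to 0.404 and 0.296 without those 2 libraries and so rest on them. Smtn, Des, Notch3, Rgs5 and Myocd did not pass, with r of -0.161, 0.037, 0.295, 0.475 and 0.523 (permutation p = 0.62, 0.91, 0.36, 0.11 and 0.085, two-sided). All of these values come from the same libraries, which also share their depth and tissue composition.

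Urothelial transcripts varied along with Myh11. The 10 urothelial markers, such as the uroplakins of the lining of the pelvis, summed to 29.1 to 158 CPM in Grhl2KO_Myc, 64.7 to 132 CPM in Myc and 50.9 to 112 CPM in wildtype, and none of the 10 was at 0 in a library. In Grhl2KO_Myc against wildtype, 9 of the 10 were above 0, where 51.5% of all genes were below 0. Of the 10, 1 was called, Krt15 (log2 fold change 1.695, SE 0.262, edgeR adjusted p = 0.0028), where 6.67% of all genes were called. Their sum correlated with Myh11 (r = 0.881, permutation p = 0.00024, rho = 0.839, permutation p = 0.0010, n = 12 libraries). The r was 0.770 without Grhl2KO_Myc 4 and wildtype 4, and 0.879 within groups. The most similar of 17941 genes above 1 CPM on average were Cnn1, Tbx18, Actg2, Asb2 and Upk2, with r from 0.933 to 0.974. Tbx18 is a transcription factor of the mesenchyme that forms the smooth muscle of the ureter, and Upk2 is a uroplakin. The part of urothelial and pelvic tissue in the values of Myh11, Cnn1 and Actg2 was not tested. The sum of the 20 proximal tubule markers gave r = 0.549 with Myh11 (permutation p = 0.059, rho = 0.497) and -0.176 without those 2 libraries.

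**Figure D4:**
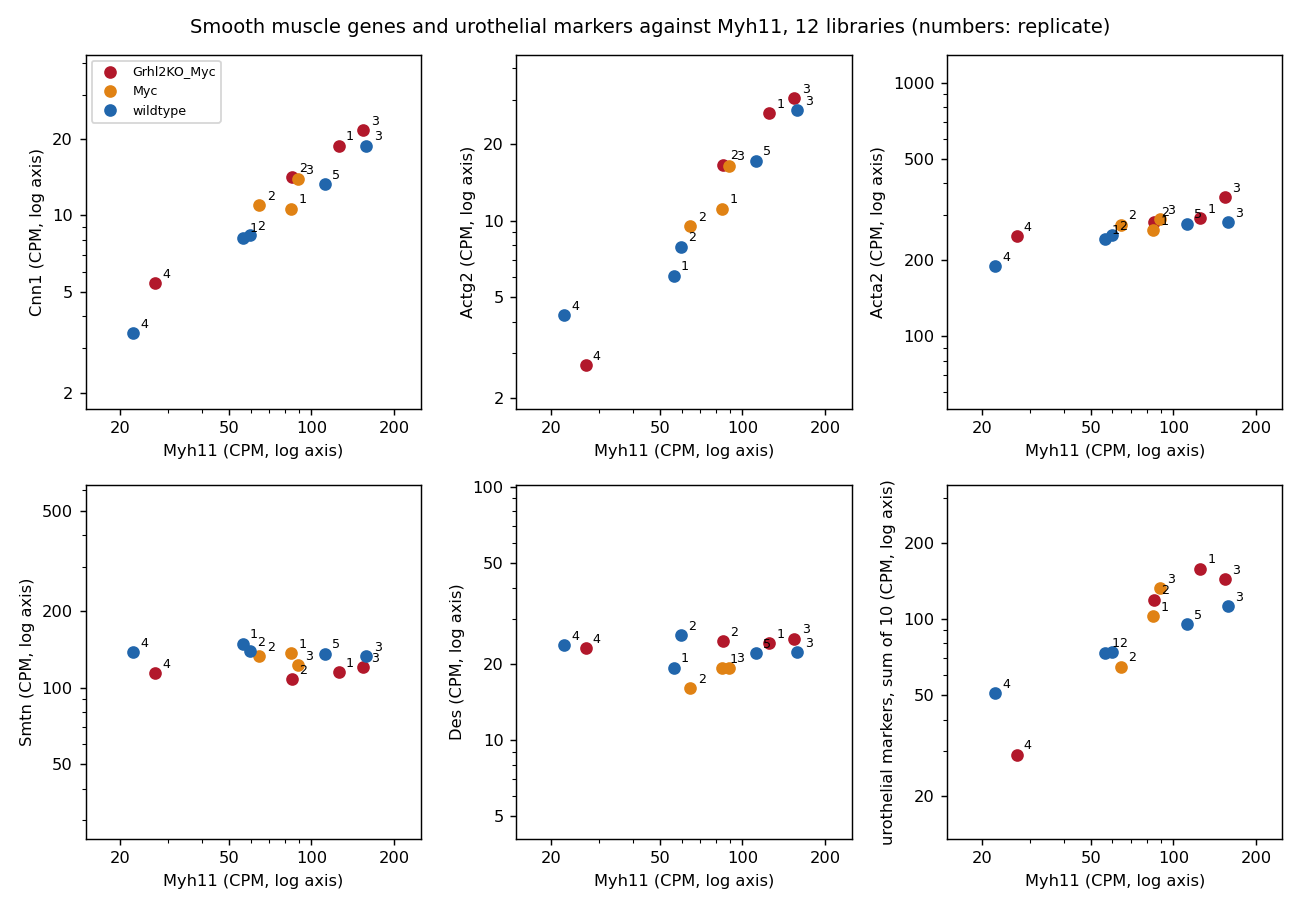
CPM of Cnn1, Actg2, Acta2, Smtn, Des and the sum of 10 urothelial markers (y axes, log scale) against CPM of Myh11 (x axes, log scale) in 12 libraries, coloured by group and numbered by replicate. Cnn1, Actg2 and the urothelial sum climb along with Myh11 (r of 0.974, 0.960 and 0.881), while Smtn and Des lie flat (r of -0.161 and 0.037).

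Desmin, the intermediate filament of muscle, had the smallest adjusted p of the 39 genes between Grhl2KO_Myc and Myc. Des was at 24.1, 24.6, 25.2 and 23.0 CPM in Grhl2KO_Myc, at 19.2, 16.0 and 19.3 CPM in Myc, and at 19.3, 26.0, 22.3, 23.8 and 22.0 CPM in wildtype. All Grhl2KO_Myc libraries are above all Myc libraries, and they overlap wildtype. Over Myc its log2 fold change was 0.41 (SE 0.10, edgeR adjusted p = 0.0804, DESeq2 adjusted p = 0.00524), and without wildtype 4 edgeR gave an adjusted p of 0.0462. Leaving out each library in turn gave 0.33 (without Myc 2) to 0.45 over Myc, with edgeR adjusted p from 0.0462 to 0.307. Over wildtype it was 0.09 (SE 0.09, adjusted p = 0.566). Des is also a skeletal muscle gene, and wildtype 2, its highest library, had a summed level of 10 skeletal muscle markers of 153 CPM, against 23.8 CPM or less in the other 11. Des was chosen after its values were seen.

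Pericyte genes and the weaker contractile genes were not called. Rgs5, a regulator of G protein signalling typical of pericytes, and Notch3, the receptor that keeps mural cells in place, had log2 fold changes over wildtype of -0.14 and -0.11 (edgeR adjusted p = 0.605 and 0.689). Mylk, the kinase of the myosin light chain, was at -0.07 over wildtype, and at -0.20 without wildtype 4, where it had 171 CPM against 280 to 321 CPM in the other 4 wildtype libraries. Lmod1, an actin nucleator, was at 0.37 with an adjusted p of 0.342. Myocd and the filament protein Synm were at -0.48 and -0.35 with adjusted p of 0.353 and 0.32. Pln, at no more than 0.419 CPM in any library, was at -0.04.

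Between Grhl2KO_Myc and Myc kidneys, which share the overexpressed transgene in their labels, none of the 39 genes was called. EdgeR called 0.842% of all genes in this comparison. At an unadjusted p under 0.05, Tgfb1 and Des had positive values and Fn1 and Smtn negative ones, 4 of the 39, against 13.3% of all genes. The libraries did not overlap for 3 genes with positive values (Lox, Tgfb1 and Des) and 2 with negative ones (Col6a3 and Smtn), against 16.8% of all genes in either direction. DESeq2 called 1 of the 39, Des, where it called 3.48% of all genes. Medians of the log2 fold change were -0.03 for the 25 matrix genes and 0.04 for the 14 smooth muscle genes, against 0.00 for all genes.

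Between Myc and wildtype kidneys, none of the 39 genes was called in edgeR or DESeq2. The share of all genes called was 0.00421% in edgeR and 0.192% in DESeq2. At an unadjusted p under 0.05 there was 1 gene of the 39, Des (log2 fold change -0.32, SE 0.09, edgeR adjusted p = 0.865), against 4.62% of all genes. Sparc alone had libraries without overlap, at 638, 632 and 643 CPM in Myc against 662 to 701 CPM in wildtype, where 3.57% of all genes did not overlap. Of the 25 matrix genes, 23 were below 0, against 50% of all genes, with a median of -0.04, against 0.00 for all genes. The 25 genes share their libraries, so they do not count as separate observations. For 23 of 25 the interval lay within 1.5-fold. Since the same wildtype libraries serve both comparisons with wildtype, their values are not independent.

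A further 6 lists of genes of the same biology were read from the same fit. Of 148 genes tested, 13 were called between Grhl2KO_Myc and wildtype, 11 lower and 2 higher, which is 8.78%, against 6.67% of all genes, 2.61% lower and 4.06% higher. All 12 endothelial, 10 podocyte, 20 proximal tubule and 10 loop and distal tubule markers also had values below 0 in this comparison. Of all genes, 51.5% did. Several of the genes named next, such as Nid1, Nid2, Plat and Itgav, are expressed outside stroma too. The part of those cell types in the values was not tested. EdgeR called 0 of the 148 between Grhl2KO_Myc and Myc, where it called 0.842% of all genes. There 13 of the 148 had an unadjusted p under 0.05, against 13.3% of all genes, and DESeq2 called 3, against 3.48%. Between Myc and wildtype edgeR and DESeq2 each called 0, against 0.00421% and 0.192% of all genes. In that comparison 12 of the 148 had an unadjusted p under 0.05, against 4.62% of all genes. Basement membrane and matrix genes gave 3 lower of 31, of which Nid2, a nidogen that joins laminin to type IV collagen, was at 149 ± 11.2 CPM in Grhl2KO_Myc and 204 ± 14.4 CPM in wildtype (SD, n = 4 and 5). The difference in Nid2 was -0.45 on the log2 scale (SE 0.07, edgeR adjusted p = 0.00279). Its relative Nid1 was at -0.27 (adjusted p = 0.044), and Ltbp1, which tethers latent TGF-beta to the matrix, at -0.41 (adjusted p = 0.0234). In the TGF-beta list 1 of 23 was lower, the integrin chain Itgav, which takes part in releasing active TGF-beta, at 101 ± 8.99 CPM in Grhl2KO_Myc and 129 ± 5.83 CPM in wildtype (log2 fold change -0.35, SE 0.06, adjusted p = 0.00737).

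Matrix turnover gave 3 lower of 19 tested. These were the proteoglycan-cleaving protease Adamts9 (log2 fold change -0.26, edgeR adjusted p = 0.00751), the plasminogen activator Plat (-0.36, adjusted p = 0.0272) and the inhibitor Timp3 (-0.24, adjusted p = 0.044). Among 23 genes of collagen processing, the crosslinking enzyme Loxl2 alone was lower (-0.21, adjusted p = 0.0486), and the call was lost in 11 of 12 fits that left out 1 library. Of 26 other contractile genes, 2 were higher, the tropomyosin Tpm1 and the small heat shock protein Hspb6. Tpm1 was at 465 ± 27.4 CPM in Grhl2KO_Myc and 377 ± 16.6 CPM in wildtype (log2 fold change 0.30, SE 0.05, adjusted p = 0.00673), opposite in sign to Smtn, and it is also expressed outside muscle. Of 26 other fibroblast and pericyte genes, 3 were lower, namely the fibroblast protease Fap (-0.43, adjusted p = 0.0342), the transcription factor Ebf1 (-0.32, adjusted p = 0.0421) and the ligand Pdgfa (-0.27, adjusted p = 0.0452). Nid2, Itgav, Adamts9 and Tpm1 stayed called in all 12 fits that left out 1 library. The others lost the call in 2 (Ltbp1), 4 (Plat), 8 (Ebf1 and Fap), 9 (Timp3) or 10 (Nid1, Hspb6 and Pdgfa) of the 12.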

How the data were processed

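Polyadenylated RNA of whole right kidneys was sequenced in 12 libraries with the TruSeq RNA v2 kit, which does not mark strand, per the labels' protocols. Per the submitters' processing notes, HISAT2 and mm10 were used for alignment. The aligner version, counter and gene annotation were not given in the sources used here. Raw counts per gene are what the authors deposited. Groups were taken from the sample titles.

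Counts were tested with edgeR 4.0.16 in R 4.3.3 (TMM, filterByExpr, quasi-likelihood F test, all 12 libraries in 1 fit, Benjamini-Hochberg adjustment over 23742 genes). SEs were derived from the fold change and its F statistic, and the script was tested on simulated data. The most similar pair of replicates gave 13.5 as chi-square per degree of freedom, so each library counts once. Of the 39 genes, 14 have exons that overlap an antisense gene and 4 (Tagln, Synm, Pln and Fbn1) a coding gene, in GENCODE M21. Levels per kilobase use the exon width deposited with the counts. Relations with Myh11 were tested on log2 CPM by 100000 permutations.

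The members and lists were chosen with earlier results of these data known. Genes were named as follows. Any member called in a comparison was given in full, and Col1a1, Col3a1, Fn1, Vim, Pdgfrb, Timp1, Tgfb1, Acta2, Myh11 and Tagln always. From each list, up to 3 called genes with the smallest adjusted p were named. The alternatives tried were upper-quartile or RLE scaling, no filter, DESeq2 1.42.0, only the groups compared, a replicate block, a term for Ddx3y above 10 CPM, each library left out, and the 3 libraries low in proximal tubule markers left out together.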

Additional observations from a re-analysis of the deposited data

Results flagged for a closer look

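Within-group values that stand apart by Dixon's test were found for 8 of 78 sets of libraries examined. For a single set chance alone gives about 1 in 20. The sets are of genes read in the same libraries and are not independent, so the count cannot be weighed against that rate. Wildtype 4 accounted for 3 of them. It was low for Col6a3 (95.7 CPM, against 161 to 182 CPM in the other wildtype libraries) and for Mylk (171.4 CPM, against 280 to 321 CPM), and high for Vim (539.3 CPM, against 368 to 376 CPM). Grhl2KO_Myc 2 accounted for another 3, all high: Col14a1 (142.2 CPM, against 103 to 104 CPM), Sparc (696 CPM, against 594 to 606 CPM) and Tgfb1 (37.4 CPM, against 31.2 to 32.2 CPM). Pdgfra was low in Grhl2KO_Myc 1 (106.7 CPM, against 126 to 129 CPM), and Fn1 was high in wildtype 1 (719.3 CPM, against 588 to 625 CPM). The Myc group, with 3 libraries, was not examined in this way.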

How the results depend on the processing

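The call of Smtn against wildtype held under each of the 20 alternatives. Genes called in all numbered 1584 for Grhl2KO_Myc against wildtype, 2636 with DESeq2, 995 with only those groups fitted, 998 with a Ddx3y term, and 750 (without Grhl2KO_Myc 4) to 3778 (without wildtype 4) with 1 library left out. For Grhl2KO_Myc against Myc there were 200, 762 with DESeq2, 318 without the 3 libraries low in proximal tubule markers, and 70 (without Myc 2) to 703 (without wildtype 4) with 1 library left out. For Myc against wildtype there was 1, 42 with DESeq2, 0 with only those groups fitted, 0 with a Ddx3y term, and 0 to 6 (without Myc 1) with 1 library left out. Matrix genes called between Grhl2KO_Myc and wildtype were 0, 1 with DESeq2, 2 without the 3 libraries and 0 to 4 with 1 library left out. Smooth muscle genes called between Grhl2KO_Myc and Myc were 0, 1 with DESeq2 and 0 to 1 with 1 library left out. The cause of these shifts was not tested. No called value changed sign, and the median log2 value of all genes stayed within 0.0148 of 0 under other scalings.

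The labels give no shared litter or day for replicate numbers. Deviations of same-numbered libraries from their group means had r from -0.11 to 0.23. The highest r was that of Grhl2KO_Myc 4 with wildtype 4, and the others were at or below 0.096. With the replicate block, 993 genes were called between Grhl2KO_Myc and wildtype, 88 between Grhl2KO_Myc and Myc and 0 between Myc and wildtype. Smooth muscle genes called between Grhl2KO_Myc and wildtype were then 2, Smtn and Acta2.

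The spread between libraries limits what can be resolved. Between Grhl2KO_Myc and wildtype, the 95% intervals of Myh11, Actg2 and Pln reach past 1.5-fold in both directions. On the log2 scale the interval of Cnn1 runs from -0.42 to 1.48 and that of Myocd from -1.11 to 0.14. In this comparison 11 of the 39 intervals were not within 1.5-fold.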
